A study of Mus musculus with 2 samples.

Results

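The proteasome genes of mouse platelets were followed on both arrays of a comparison between Smad4 f/f and Smad4 −/− animals. Members were all probe sets with 1 gene symbol in the array annotation that begins with Psma to Psmg and a number, or is Pomp. This gave 48 genes with 101 probe sets, of 18193 genes and 45037 probe sets that are not controls. Of the 48 genes, 19 encode the core particle, 6 the ATPase ring, 11 the lid and other non-ATPase subunits of the cap, 4 activators or an inhibitor, and 8 assembly factors. Both genotypes were C57BL/6 mice with loxP sites flanking Smad4. In the Smad4 −/− mice a Cre recombinase under the PF4 promoter was used to remove Smad4 in megakaryocytes and platelets, and the Smad4 f/f mice are labelled wild-type controls. The sources used here do not say whether these controls carry Cre, how old the animals were or whether RNA was pooled. Each genotype is stated to have 6 mice and was hybridised to 1 array, called the control array for Smad4 f/f. There are therefore no replicates, no difference below has a test, and precision is limited by the number of arrays.

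The proteasome is the large protease that degrades ubiquitin-tagged proteins. Its core particle is a barrel of alpha and beta rings, with the protease sites inside the beta rings. A cap with a ring of ATPases, which unfold substrates, and a lid, which removes ubiquitin, sits on its ends, and other activators can take the place of the cap. Dedicated chaperones assemble the rings and leave the finished particle. Platelets have no nucleus and carry proteasomes and mRNA made by the megakaryocyte, and in that lineage proteasome activity is known to be needed for normal platelet production.

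The deposited values are log2 signals of whole probe sets. A signal of 145 (log2 7.18), the 60th percentile of the array with the higher one, served as the floor, and a gene counted as measured where at least 1 array reached it. A gene was represented by its strongest probe set, that is, the highest by mean log2 signal. Probe sets with names ending in _x_at counted only where a gene had no other. Ratios divide the Smad4 −/− signal by the control signal after both were raised to the floor. Where 1 of them lay below it, the fold of the deposited signals is larger than the floored fold, which is given as “at least”. Such a bound follows from the floor and takes no account of noise in weak signals. The targeted gene did not separate the arrays. Smad4 signal was 949 on the control array and 894 on the Smad4 −/− array, with log2 ratios of −0.09, −0.13 and −0.12 for its 3 probe sets. Whether these lie in the deleted part of the gene was not analysed here, and Smad4 −/− below means the array so labelled. All 10 platelet markers analysed were measured and within 2-fold, among them Pf4 and Itga2b. For Gapdh, whose control probe sets at the 3' and 5' ends report on RNA integrity, the 3' signal over the 5' signal came to 1.86 on the control array and 2.61 on the other, while for beta-actin it was 1.16 and 1.27.

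Most proteasome genes, like most measured genes, had nearly the same signal in both genotypes. Of the 48 members 47 were measured, 43 of them above the floor on both arrays. Of these 43 members 40 lay within 2-fold, beside 7423 of all 7876 genes above the floor on both arrays. The other 4 measured members, Psmb7, Psmb11, Psme3 and Psmg3, lay below the floor on 1 array. Their ratios are therefore bounds short of 2-fold, and their true size is not known. Psmc4 of the ATPase ring and the assembly factors Psmd9 and Psmg4 had a Smad4 −/− signal at least 2-fold below that of the control, and 0 members were shown to be at least 2-fold above. By that rule 3 of 47 measured members were lower and 0 higher, beside 3.58% and 3.42% of all 11089 measured genes. So small a count is not read as a difference from the background. At a looser 1.5-fold, 7 members were lower and 4 higher, beside 13.3% and 11.8% of all measured genes. The median log2 ratio was 0.01 over the members and −0.02 over all measured genes. By sign the members were evenly divided, with 24 above 0 and 23 below. A log2 ratio of at most 0.5 either way was seen in 34 of the 43 members above the floor on both arrays (79.1%) and in 71.1% of all 7876 such genes. In bulk platelet RNA, fewer cells of a type and less RNA per cell cannot be told apart.

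**Figure D1:**
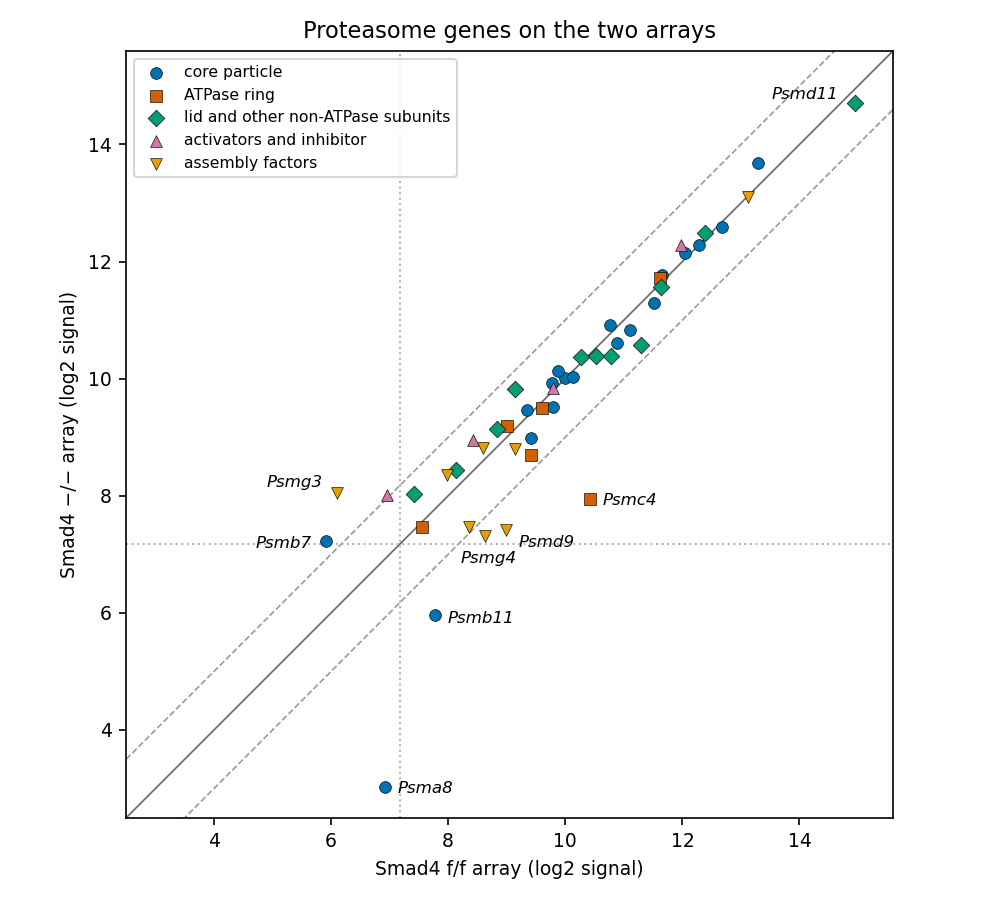
Log2 signal of each of the 48 proteasome genes on the Smad4 f/f array (x axis) and the Smad4 −/− array (y axis), with symbols for the groups. The solid line marks equal signal, the dashed lines 2-fold and the dotted lines the floor; most genes lie near the solid line, and Psmc4, Psmd9 and Psmg4 lie below the lower dashed line with both signals above the floor.

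The bases just before the gene starts are shown for the 3 members past 2-fold, so that their promoters can be set side by side, and for Psmb5, the member whose promoter holds the palindromic SMAD motif. RefSeq promoter entries (GRCm38.p6) matched 40 of the 48 members. Each line gives the 250 bases before the annotated start, 5′ to 3′ on the strand of the gene. Capitals mark matches on either strand to GTCTAGAC (the SMAD palindrome), CAGAC (a short SMAD motif), TGACNNNGC (the core of the antioxidant response element, to which the proteasome regulator encoded by Nfe2l1 binds) or GGGCGG (the GC box).
Psmc4 (chr7:28050093-28050342, minus strand): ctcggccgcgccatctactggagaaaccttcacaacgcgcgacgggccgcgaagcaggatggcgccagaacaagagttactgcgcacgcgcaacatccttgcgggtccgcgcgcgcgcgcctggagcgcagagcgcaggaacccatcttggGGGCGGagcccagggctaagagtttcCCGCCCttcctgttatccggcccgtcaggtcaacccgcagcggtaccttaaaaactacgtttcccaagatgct
Psmd9 (chr5:123227940-123228189, plus strand): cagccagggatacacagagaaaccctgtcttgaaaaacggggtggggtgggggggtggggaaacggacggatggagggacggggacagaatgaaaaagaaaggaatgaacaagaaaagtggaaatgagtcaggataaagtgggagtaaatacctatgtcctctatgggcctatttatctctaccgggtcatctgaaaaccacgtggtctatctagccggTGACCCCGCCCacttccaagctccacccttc
Psmg4 (chr13:34162714-34162963, plus strand): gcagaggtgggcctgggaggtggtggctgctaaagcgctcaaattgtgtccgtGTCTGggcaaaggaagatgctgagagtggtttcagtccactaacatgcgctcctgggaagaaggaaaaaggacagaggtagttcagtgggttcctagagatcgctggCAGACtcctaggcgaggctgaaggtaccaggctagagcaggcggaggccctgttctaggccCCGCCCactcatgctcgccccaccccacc
Psmb5 (chr14:54617996-54618245, minus strand): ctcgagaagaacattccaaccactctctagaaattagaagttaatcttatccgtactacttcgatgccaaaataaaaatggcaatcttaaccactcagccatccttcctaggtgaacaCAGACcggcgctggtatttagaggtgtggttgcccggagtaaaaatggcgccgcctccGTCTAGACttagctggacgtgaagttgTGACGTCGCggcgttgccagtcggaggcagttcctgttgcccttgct

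No promoter letters among these motifs set the 3 lower genes apart as a group. The SMAD palindrome occurs in 1 of the 42 member promoters, that of Psmb5 from 74 to 67 bases before the start, and in 0.167% of all 32851 promoters. Psmb5 itself had a log2 ratio of 0.10. The short SMAD motif is in 14 of 42 member promoters (33.3%) and 42.2% of all, and of the 3 lower genes only Psmg4 has it, at 2 places. The antioxidant response element core is in 5 of 42 (11.9%, against 10.2% of all), those of Psmb5, Psmb6, Psmc6, Psmd12 and Psmd9. In Psmd9 it starts 31 bases before the gene start and overlaps a GC box. The GC box was the more common motif, present in 22 of 42 member promoters (52.4%) and 32.7% of all, and Psmc4, Psmd9 and Psmg4 each hold it. These are matches of letters and show no binding.

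In the ATPase ring, Psmc4 gave the largest difference among members above the floor on both arrays when each gene was read by its strongest probe set. Psmc4 encodes a subunit of the ring that unfolds substrates and feeds them into the core. It read 1378 on the control array and 246 on the Smad4 −/− array, 5.59-fold lower, a size of at least 3-fold that 0.415% of all measured genes reached in this direction. Its second probe set read 449 on the control array and 538 on the Smad4 −/− array, a log2 ratio of 0.26 against −2.48 for the first. The probe sets of Psmc4 therefore differed in direction, and their mean log2 ratio was −1.11, smaller than the −1.31 of Psmg4.

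The other ATPase genes did not share this difference. Psmc5 read 682 on the control array and 417 on the Smad4 −/− array, 1.64-fold lower, from its only probe set. Psmc1 (188 against 177), Psmc2 (780.3 against 725), Psmc3 (3148 against 3386) and Psmc6 (514 against 588) had log2 ratios between −0.11 and 0.19 by their strongest probe sets. The second measured probe sets of Psmc2 (0.32) and Psmc6 (−0.21) had the opposite sign. That of Psmc2, an _x_at probe set, had the higher signal, 1797 on the control array and 2239 on the other. The ring is built from 1 copy of each of these 6 subunits, and the median log2 ratio over the 6 genes was −0.10.

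Of the 5 groups the core particle had the largest share of genes near equality. All 16 of its genes above the floor on both arrays had log2 ratios within 0.5 by their strongest probe sets. The share over all genes above the floor on both arrays was 71.1%, and 77.1% at a mean log2 signal of 9 or more. Psmb7 and Psmb11 had bounds and were the only 2 measured core genes with a mean log2 signal below 9. Over the 18 measured genes the floored log2 ratios ran from −0.59 to 0.39 with a median of −0.003, and 9 genes were above 0. By their strongest probe sets all 7 measured alpha subunit genes, which form the outer rings and the gate, lay within 0.5. Psma3 was the highest of them, at 10052 on the control array and 13184 on the Smad4 −/− array (log2 ratio 0.39), and Psma4 the lowest, at 682 and 507 (−0.43). Psma1 read 1022 and 1029, Psma2 5013 and 4960.3, and Psma6 1738 and 1928. Other measured probe sets gave log2 ratios of −0.59 for Psma5, 0.17 and 0.65 for Psma6, and 0.49 for Psma7. The strongest probe set of Psma7 had one of −0.10. Psma8, an alpha subunit of germ cells, was the only member below the floor on both arrays.

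Among the beta subunits, all 9 genes above the floor on both arrays lay within 0.5 by their strongest probe sets. Psmb1, Psmb2 and Psmb3, which carry no active site, had log2 ratios of −0.27, −0.27 and −0.23, and Psmb4, also without an active site, one of 0.12. Other measured probe sets gave −0.81 and at least 0.42 for Psmb1 and 0.40 for Psmb3, so those genes have no settled direction. Psmb11, a catalytic subunit of the thymus, had the lowest floored ratio of the group, with 218 in Smad4 f/f and a signal below the floor in Smad4 −/−, a log2 ratio of at most −0.59. These ratios are differences between arrays, and signals of different probe sets do not rank genes by abundance.

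Cells can exchange the constitutive catalytic subunits for inducible ones, which form the immunoproteasome and favour peptides for MHC class I. At the chymotrypsin-like site the inducible Psmb8 read 938 on the control array and 1124 on the Smad4 −/− array, a log2 ratio of 0.26, and the constitutive Psmb5 read 4215 and 4523. At the caspase-like site the inducible Psmb9 went the other way, from 888 in Smad4 f/f to 729 in Smad4 −/− (−0.28), beside 651 and 705 for the constitutive Psmb6 (0.11). At the trypsin-like site the inducible Psmb10 read 876 and 978 (0.16), and the constitutive Psmb7 lay below the floor on the control array (60.3) and at 149 in Smad4 −/−, a log2 ratio of at least 0.04. The ratio of the inducible gene differed from that of its constitutive counterpart by 0.16 at the chymotrypsin-like and −0.40 at the caspase-like site. So the inducible genes showed no shared direction, and each of the 3 stayed within 1.5-fold.

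**Figure D2:**
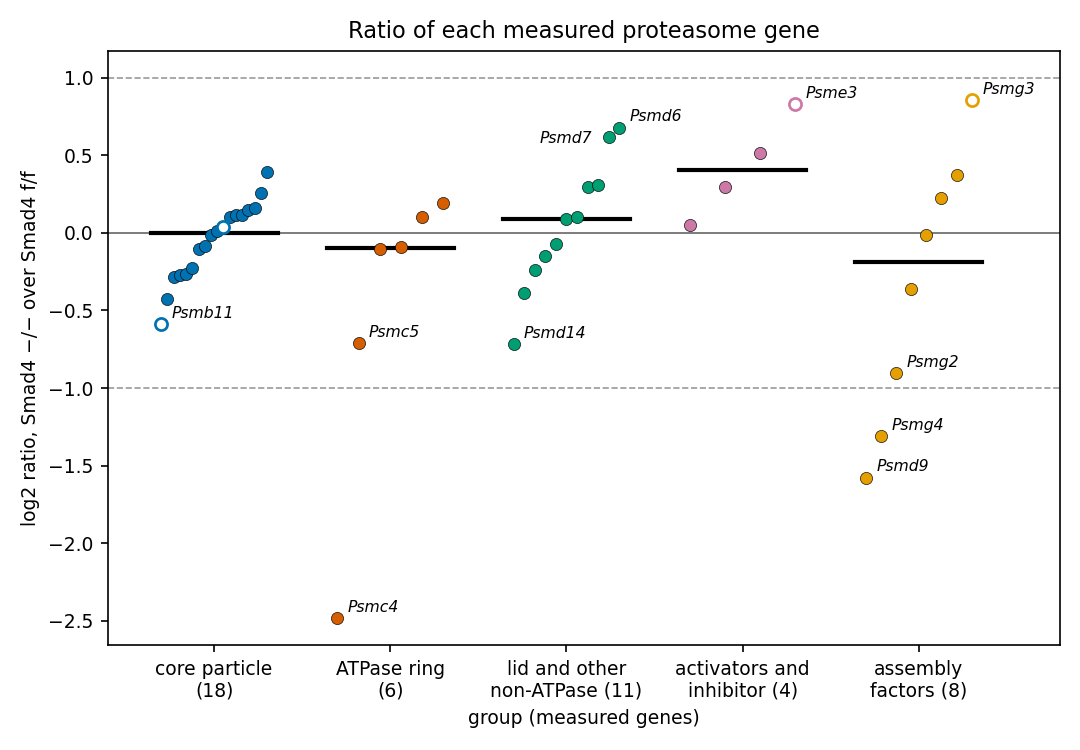
Log2 ratio of Smad4 −/− over Smad4 f/f (y axis) for each measured member by group (x axis, number of measured genes in brackets), 1 array per genotype. Thick bars are group medians, dashed lines mark 2-fold and open points have 1 array below the floor; the core particle lies between −0.59 and 0.39 while the assembly factors run from −1.58 to 0.86.

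Genes of the lid and the other non-ATPase subunits went both ways. None of the 11 passed 2-fold, 6 were above 0, and the median log2 ratio was 0.09, or −0.05 with the mean of the measured probe sets of each gene. Psmd14, the metalloprotease that cuts ubiquitin chains off the substrate, was the lowest at 2519 on the control array and 1532 on the Smad4 −/− array, 1.65-fold lower by its only probe set. Psmd6 and Psmd7 were the highest. Psmd7, the inactive partner of Psmd14, read 170.2 on the control array and 262 on the Smad4 −/− array (1.54-fold higher), and its other measured probe set had a log2 ratio of at least 0.51. Psmd6, a scaffold subunit of the lid, read 564 and 903 (1.60-fold higher), with 0.57 for its second probe set. The partners Psmd14 and Psmd7 thus lay on opposite sides of 0.

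The large scaffold genes of the cap base, Psmd1 (1479 against 1336) and Psmd2 (1238 against 1316), and the ubiquitin receptor gene Psmd4 (5381 against 5776) had log2 ratios of −0.15, 0.09 and 0.10. Second measured probe sets of Psmd2 (−0.18 or lower, a bound) and Psmd4 (−0.26) went the other way. Psmd3, Psmd8 and Psmd12 had ratios of 0.31, −0.07 and 0.30. Psmd13 had a log2 ratio of −0.39 (1757 on the control array and 1343 on the Smad4 −/− array), and its second measured probe set one of −0.25. Psmd11, a lid subunit with 8 probe sets, read 31568 and 26742 by its strongest, a log2 ratio of −0.24. Its other 4 measured probe sets gave 0.02, 0.22, 0.29 and 0.73, so the sign of Psmd11 rests on which probe set stands for it.

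By their strongest probe sets the activator and inhibitor genes had log2 ratios above 0. These ran from 0.05 to at least 0.83 with a median of 0.41 over 4 genes, and none was shown to pass 2-fold. Psme1, a subunit of the interferon-inducible activator ring, read 4035 on the control array and 4955 on the Smad4 −/− array. Psme3, which forms the nuclear activator ring, read 125, below the floor, and 258, at least 1.78-fold higher. Psme4, a single-chain activator, read 891 and 921, and its other measured probe sets had log2 ratios of −0.27 and −0.63, opposite in sign to the strongest, and the mean of the 3 was −0.29. Psmf1, which encodes a proteasome inhibitor, read 345 and 493, a log2 ratio of 0.51, with 0.27 as a lower bound from its second measured probe set. Across all measured genes 5356 of 11089 lay above 0, and 4 genes are too few to read as a pattern.

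Of the 5 groups the assembly factors lay farthest from equality, though near other genes of weak signal. Over genes above the floor on both arrays their median absolute log2 ratio was 0.37, against 0.15 to 0.30 in the other groups and 0.31 over all genes. At a mean log2 signal below 9, where 7 of the 8 assembly factors lay, it was 0.36 over all such genes. The 8 floored log2 ratios of the assembly factors ran from −1.58 to 0.86, with 4 within 0.5, 5 below 0 and a median of −0.19. With the mean of the measured probe sets of each gene the median was −0.04. Psmd9, a chaperone that helps join ATPase subunits, read 509 on the control array and 171 on the Smad4 −/− array, 2.99-fold lower. Its second measured probe set read 181 and a signal below the floor, at least 1.25-fold lower, so both went the same way. The other chaperones of the ATPase base, Psmd5 (387 against 453) and Psmd10 (568 against 443), whose protein binds that of Psmc4, had log2 ratios of 0.23 and −0.36.

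Psmg1 to Psmg4 encode the chaperones that order the alpha ring, Psmg1 working with Psmg2 and Psmg3 with Psmg4. Psmg4 read 397 on the control array and 159.8 on the Smad4 −/− array, 2.48-fold lower, from its only measured probe set. Its partner Psmg3 lay on the other side, below the floor in Smad4 f/f (68.9) and at 263 in Smad4 −/−, at least 1.81-fold higher. Psmg2 read 329 and 176, a log2 ratio of −0.90, but its other probe sets gave −0.19 and at least 0.91, and the mean of the floored values was −0.06. Its partner Psmg1 read 252 and 327 (0.37). Pomp, which guides the beta ring and is degraded by the finished core, read 8905 and 8810.2, a log2 ratio of −0.02.

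Weak signal went along with this scatter. Of the 8 assembly factors 7 had a mean log2 signal below 9, against 8 of the other 39 measured members. Among the 15 measured members below 9, 2 passed 2-fold (Psmd9 and Psmg4) and 4 had bounds. Of the 11 above the floor on both arrays 6 (54.5%) lay within 0.5, beside 65.4% of all such genes. Of the 32 members at 9 or more, 1 passed 2-fold (Psmc4) and 28 (87.5%) lay within 0.5. For all measured genes at least 2-fold lower the shares were 4.52% below 9 and 1.82% at 9 or more, and 77.1% of the latter lay within 0.5. The part of signal in the result for the assembly factors was not tested further.

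Probe sets of the same gene show how far single ratios can be read. Of the 101 member probe sets 73 were measured, and 19 genes had at least 2 of them. In 11 of these 19 genes (57.9%) the measured probe sets fell on both sides of 0, as they did in 52.4% of 4252 such genes over the whole array. Within a gene, log2 ratios had a pooled SD of 0.58 among the members and 0.48 over all genes. Psmc4 had the widest span, 2.75, followed by Psmg2 with 1.81. In 8 genes the measured probe sets lay in 1 direction, with spans of the floored ratios from 0.09 for Psmb4 to 1.26 for Psmd9. Among these 8, Psmd6, Psmd7 and Psmd13 had spans of 0.11, 0.11 and 0.14. This yardstick holds no spread between mice or arrays.

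**Figure D3:**
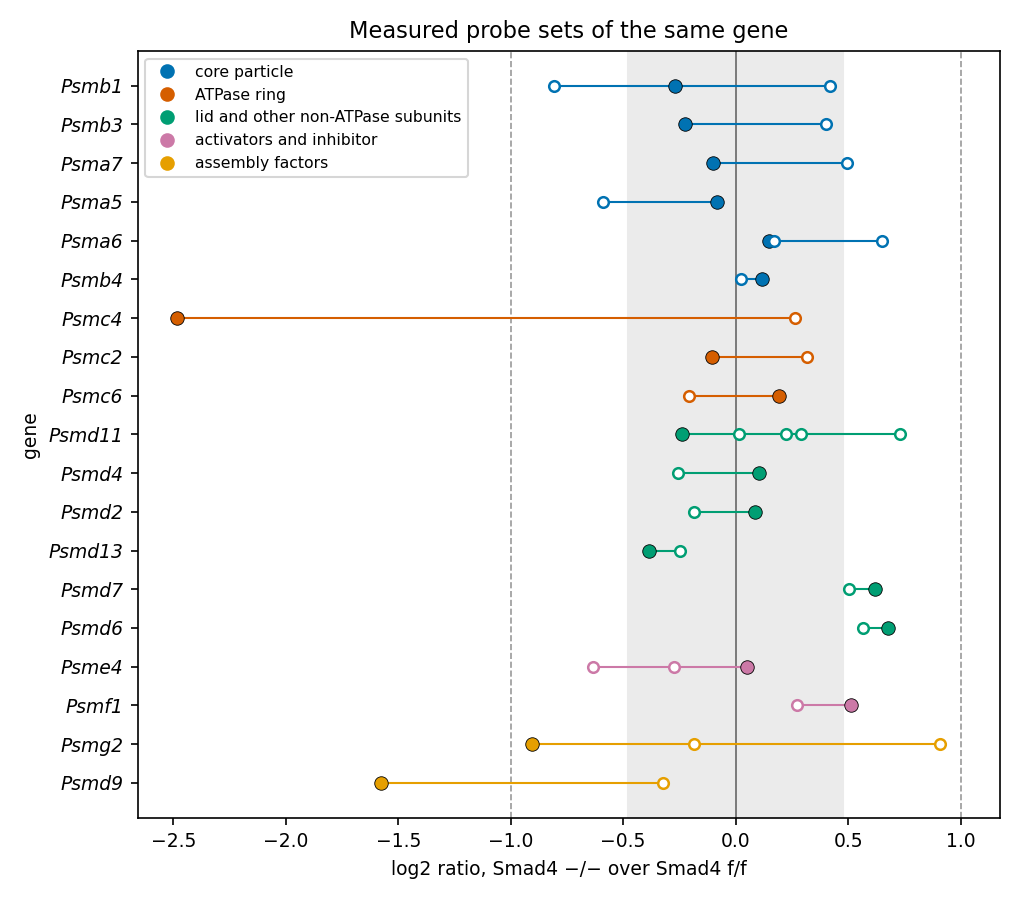
Log2 ratio of Smad4 −/− over Smad4 f/f (x axis) for every measured probe set of the 19 members with at least 2 (y axis). Filled points are the probe sets that stand for the gene, open points the others, the grey band is 1 pooled SD (0.48) either side of 0 and dashed lines mark 2-fold; the points of Psmc4 lie at −2.48 and 0.26.

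Genes that work with the proteasome were mostly near equality too. Of 25 such genes listed by function, 17 were analysed here and measured, and the median log2 ratio was −0.17. Of the 15 above the floor on both arrays 0 passed 2-fold and 14 lay within 0.5. Over all 7876 such genes 453 passed 2-fold and 71.1% lay within 0.5, and 15 genes are too few to read as a difference. The exception among the 15 was Nfe2l1, the transcription factor that raises proteasome genes when the protease is blocked. It read 480 on the control array and 301 on the Smad4 −/− array (1.59-fold lower). Ubqln4, a shuttle for ubiquitinated proteins, read 208 on the control array and lay below the floor in Smad4 −/−, at least 1.43-fold lower. With the mean of its measured probe sets the floored log2 ratio of Ubqln4 was −0.25, against −0.52 by the strongest. The ubiquitin ligase gene Ube3c read 201 and a signal below the floor, at least 1.39-fold lower. The related factor Nfe2l2 had a log2 ratio of 0.15, and Vcp, the unfoldase that extracts substrates for the proteasome, read 7445 and 9252 (0.31). Sem1, a small lid subunit outside the symbol rule, read 11121 and 9791. The deubiquitinases of the cap, Usp14 and Uchl5, had log2 ratios of −0.17 and −0.19.

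Most proteasome genes are active in all cells, so markers of other blood cells are given beside them. Of 7 erythroid markers analysed, 5 were measured and all 5 were at least 2-fold higher in Smad4 −/−, with a summed signal of 9938 on the control array and 28051 on the other, while Hba-a1 and Epb42 lay below the floor on both arrays. The summed signals of the other lists were closer, 1934 and 1999 for 6 T and NK cell markers, 3019 and 3283 for 3 B cell markers, 1684 and 1865 for 4 monocyte markers, and 5717 and 7203 for 4 neutrophil markers. Single markers in these lists went both ways. The monocyte marker Csf1r passed 2-fold and was higher in Smad4 −/− (167 against 518), while the monocyte marker Mpeg1 read 280.4 on the control array and lay below the floor on the other, a log2 ratio of at most −0.95, and the T cell marker Cd3d had one of −0.98. Cd3e, Cd3g, Cd14, Elane and Mpo lay below the floor on both arrays, and the summed platelet markers differed by a ratio of 1.06. Beside the lower Psmc4, Psmd9 and Psmg4 signals, the part of erythroid RNA and of the Gapdh 3' to 5' difference was not tested.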

How the data were processed

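Total RNA of washed platelets was amplified from the 3' end, labelled with biotin and put on Affymetrix mouse genome arrays, 1 per genotype, per the labels. Each probe set has 1 deposited value per array, a log2 signal. The submitters' processing notes name MAS5 without a version, and a genome build is not stated there. Both arrays have the same mean signal of 500.01 after trimming 2% at each end, so they were used as the authors scaled them. Detection calls were not used.

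The floor, the choice of 1 probe set per gene (_x_at only where there was no other) and the 2-fold rule of size are given with the results. No test was run. Named in full were members with a measured probe set past 2-fold, the 2 of each group with the most probe sets, and the catalytic pairs; other names were chosen after their values were seen. The members and lists were chosen with earlier results of these data known. Alternatives were median centring, quantile normalisation, loess, other floors, the mean of measured probe sets, leaving out _s_at and _x_at probe sets, and thresholds of 1.5-fold and 3-fold. Python 3.11.15, pandas 2.3.3 and statsmodels 0.14.6 were used. The steps were tested on simulated data with shifts planted only in genes of strong signal, so that test does not cover weaker genes such as Psmd9 and Psmg4.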

Additional observations from a re-analysis of the deposited data

How the results depend on the processing

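Psmc4, Psmd9 and Psmg4 were the members at least 2-fold lower, and 0 were higher, under median centring, quantile normalisation, loess and without _s_at and _x_at probe sets. The count of lower members was 1 (Psmc4) at a floor of the 75th percentile, 1 (Psmc4) at 3-fold and 7 at 1.5-fold, where 13.3% of all measured genes were called lower (1.95% at the 75th percentile, 0.415% at 3-fold). It was 4, with Psmb11, at the 50th percentile floor and with no floor (5.80% and 11.7% of all). Members called higher numbered 2 with the floor at the 50th percentile (Psme3 and Psmg3), 3 with no floor (also Psmb7) and 4 at 1.5-fold, beside 5.10%, 10.2% and 11.8% of all measured genes. With the mean of measured probe sets the floored log2 ratio of Psmd9 was −0.95, short of 2-fold. That mean includes the bound from its second probe set and so is itself a bound. Psmc4 moved to −1.11. At a floor of the 75th percentile the Smad4 −/− signals of Psmd9 and Psmg4 lay below the floor, which left bounds of −0.97 and −0.61. The median of all members ranged from −0.01 to 0.02. Group medians ranged from −0.02 to 0.05 for the core particle and −0.11 to −0.05 for the ATPase ring. For the lid and other non-ATPase subunits the range was −0.05 to 0.10, and for the activators and inhibitor 0.30 to 0.42. It was −0.19 to −0.04 for the assembly factors. With the mean of measured probe sets the lid median turned to −0.05 and that of the assembly factors moved to −0.04. The median of the associated genes moved from −0.17 to 0.0045 at the 75th percentile floor and to −0.039 without _s_at and _x_at probe sets. The cause of these shifts was not tested. No paired analysis was possible because each genotype has 1 array. At the main floor, a signal below it on 1 array limits Psmb7, Psmb11, Psme3 and Psmg3 to bounds.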

Other observations

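Psme2, the partner of Psme1 in the interferon-inducible activator ring, shares its probe set with Psme2b and so fell outside the rule of 1 symbol. Its signal was 1467 on the control array and 1734 on the Smad4 −/− array, a log2 ratio of 0.24, beside 0.30 for Psme1. The signal cannot be divided between Psme2 and Psme2b.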
